A study of Mus musculus with 3 samples.

Results

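Monocytes and related cells that carried Thbs1 transcripts but little C1q were examined in 2 melanomas. Thbs1 encodes thrombospondin-1, a secreted matricellular glycoprotein. The cells were selected on their own counts in the single-cell libraries, so Thbs1, Lyz2, C1qa, C1qb, C1qc, Csf3r and Retnlg describe them and are not results. Cells were kept if they held 1000 or more unique molecules (UMIs) from 400 or more genes, of which no more than 10% were mitochondrial. A kept cell was called Thbs1-positive when it held at least 3 Thbs1 UMIs and at least 5 UMIs of the myeloid lysozyme gene Lyz2, less than 0.1% of its UMIs on the 3 complement C1q genes of mature macrophages, and at most 2 UMIs on the neutrophil genes Csf3r and Retnlg together. These limits were met by 2095 of the 8877 kept cells of both tumors (14427 kept cells in all 3 libraries). Kept cells with 0 Thbs1 UMIs and at least 5 Lyz2 UMIs in the same tumor, called Thbs1-zero, served as the contrast. They numbered 431 in the Treg-depleted tumor and 688 in the control tumor.

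All animals were C57BL/6J mice bearing subcutaneous B16F10 melanoma, a transplanted line of that strain, and myeloid cells were profiled by droplet single-cell RNA sequencing of transcript 3′ ends. The 3 groups, with 1 library each, were the tumor labelled FoxP3 DTR and treated by depletion of regulatory T (Treg) cells, the tumor of wild-type control mice, and the blood of wild-type control tumor-bearing mice. The design text speaks of 1 Treg-depleted mouse. Ages, the depleting agent and its schedule are not given in the sources used here. The FoxP3 DTR allele and the depletion occur together, so genotype and treatment cannot be told apart. Viable cells positive for CD45 and for CD11b, CD11c or both were sorted, leaving out those with CD90, NK1.1, Ly6G, B220 or SigF. With 1 library per group there was no replicate to test against, and every interval given is a 95% interval that covers counting error only, narrower than the spread between cells or animals. Gene levels are UMIs summed over a class of cells scaled to the UMI total of that class (CPM), ratios are Thbs1-positive over Thbs1-zero unless tumors are compared, and the counting interval of each ratio given excluded 1 unless stated.

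Thrombospondin-1 is stored in platelets and made by monocytes and macrophages under inflammatory stimulation. It binds the receptors CD36 and CD47 and can release active TGF-beta from its latent complex. The cells studied here are named by Thbs1 with 4 companion genes. These are interleukin-1 beta (Il1b), the neutrophil chemoattractant CXCL2, the inducible prostaglandin synthase COX-2 (Ptgs2) and the activin A subunit (Inhba). They were taken as markers with earlier results of these data known. The files list the genes as Thbs1 (ENSMUSG00000040152), Il1b (ENSMUSG00000027398), Cxcl2 (ENSMUSG00000058427), Ptgs2 (ENSMUSG00000032487) and Inhba (ENSMUSG00000041324). GENCODE M21 (GRCm38, the mm10 build) places these protein-coding genes at chr2:118111876-118127133 (plus strand), chr2:129364570-129371139 (minus), chr5:90903871-90905938 (plus), chr1:150100031-150108227 (plus) and chr13:16011851-16031621 (plus). Monocytes that enter a tumor can go on to become macrophages, which carry C1q and Apoe, and Thbs1 transcription is not in itself specific to either state.

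Thbs1-positive cells made up 759 of 4434 kept cells in the Treg-depleted tumor (17.1%, 16.0 to 18.3), 1336 of 4443 in the control tumor (30.1%, 28.7 to 31.4) and 1 of 5550 in control blood (0.0180%, 0.000456 to 0.1003). In blood 2 kept cells held 3 or more Thbs1 UMIs, although 92.1% of kept blood cells had at least 5 Lyz2 UMIs. Both tumors therefore held the cells at shares far above the blood library. The lower share in the Treg-depleted tumor depended on the Lyz2 limit. That limit was met by 41.6% of its kept cells and by 89.4% of those of the control tumor. Of the cells that met it, 41.2% were Thbs1-positive in the Treg-depleted and 33.6% in the control tumor. At least 3 Thbs1 UMIs were present in 51.4% (49.9 to 52.8) of kept cells of the Treg-depleted tumor and in 62.7% (61.2 to 64.1) of those of the control tumor. Of these, 1192 of 2277 (52.3%) in the Treg-depleted tumor and 99 of 2784 (3.56%) in the control tumor had fewer than 5 Lyz2 UMIs. The C1q limit was missed by 706 (31.01%) and 1377 (49.5%) of them, in the same order, and the neutrophil limit by 27 and 24. Without the Lyz2 limit, a setting tried after the data had been seen, 34.8% of kept cells qualified in the Treg-depleted tumor and 31.4% in the control tumor, so the direction turned. Median depth over all kept cells was 3820 UMIs in the Treg-depleted tumor and 6452 UMIs in the control tumor, and the part of this gap in the shares was not tested beyond thinning. With each cell thinned to 3000 UMIs and shallower cells left out, the shares were 15.1% and 24.9%.

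**Figure D1:**
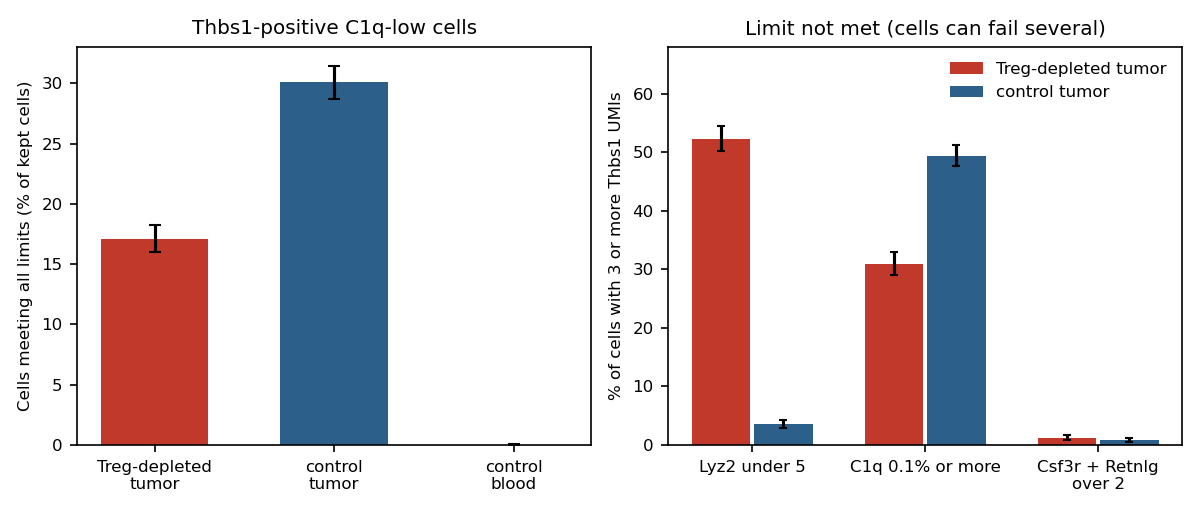
Left, share of kept cells meeting all limits in the Treg-depleted tumor, the control tumor and control blood (bars, % of kept cells; lines, exact 95% binomial intervals); right, share of cells with 3 or more Thbs1 UMIs that missed each other limit in both tumors. The Treg-depleted tumor stood at 17.1% and the control tumor at 30.1%, and 52.3% against 3.56% of their Thbs1-carrying cells missed the Lyz2 limit.

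Thbs1-positive cells were similar in depth in both tumors, with medians of 5385 UMIs in the Treg-depleted and 5372.5 UMIs in the control tumor and mitochondrial shares of 2.53% and 1.95%. Thbs1-zero cells had medians of 4544 and 5998 UMIs. The median Thbs1 count per Thbs1-positive cell was 10 UMIs in the Treg-depleted tumor (range 3 to 53) and 11 UMIs in the control tumor (range 3 to 59), or 19.1 and 19.2 per 10000 UMIs. The median Lyz2 count was 21 UMIs in the Treg-depleted tumor, against 109 UMIs in the control tumor. A further caution concerns free RNA and shared barcodes. In plasmacytoid dendritic cells, which should lack Thbs1, 1 of 8 cells in the Treg-depleted tumor and 6 of 77 in the control tumor reached 3 Thbs1 UMIs, and 0 and 5 of them met all limits. Of the kept barcodes, 36 occurred in both tumors, and 5 of these were Thbs1-positive in both.

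The name inflammatory monocyte was checked against the other markers. In the control tumor the Thbs1-positive cells carried more of all 4 companion markers than the Thbs1-zero cells. In the Treg-depleted tumor Il1b and Cxcl2 were moderately higher, while Ptgs2 and Inhba were at about the level of the Thbs1-zero cells. Il1b reached 2367 CPM in Thbs1-positive and 1559.6 CPM in Thbs1-zero cells of the Treg-depleted tumor (1.52-fold; log2 interval 0.55 to 0.66), and 6279 CPM against 2703 CPM in the control tumor (2.32-fold; 1.19 to 1.24). Cxcl2 stood at 3932 CPM against 2665 CPM in the Treg-depleted tumor (1.48-fold; 0.52 to 0.60) and at 4964 CPM against 1883 CPM in the control tumor (2.64-fold; 1.37 to 1.43). For Ptgs2 the Treg-depleted tumor gave 455 CPM against 443 CPM, with an interval that included no difference (-0.07 to 0.15), and the control tumor 254 CPM against 149 CPM (1.70-fold; 0.65 to 0.89). Inhba was at 411 CPM against 351 CPM in the Treg-depleted tumor (1.17-fold; 0.11 to 0.35) and at 329 CPM against 67.4 CPM in the control tumor (4.88-fold; 2.12 to 2.45). The weak contrast for Ptgs2 and Inhba in the Treg-depleted tumor came with high levels on both sides, since its Thbs1-zero cells exceeded the Thbs1-positive cells of the control tumor for both genes. Free RNA, read from droplets of 10 to 100 UMIs, held the 4 markers too. In the Treg-depleted tumor Il1b was at 3113, Cxcl2 at 7733 and Ptgs2 at 658 CPM there, each above the Thbs1-positive cells. Inhba, at 235 CPM, was below them. The control tumor's droplets held 4756, 4767, 241 and 78.3 CPM of Il1b, Cxcl2, Ptgs2 and Inhba, each below its Thbs1-positive cells. The part of free RNA in these levels was not tested beyond taking off 5% of it. When the Thbs1-zero cells had to meet the same C1q and neutrophil limits, the Il1b ratios of the tumors came close to each other, at log2 0.36 in the Treg-depleted and 0.40 in the control tumor, while those of Cxcl2 (0.51 and 2.04), Ptgs2 (-0.14 and 1.11) and Inhba (0.15 and 2.49) stayed apart. Since the markers did not all separate the classes in the Treg-depleted tumor, the cells are called by their Thbs1 rule here and not as inflammatory monocytes. Whether the cells are monocytes is not settled by these 4 genes.

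Counted cell by cell, with every cell thinned to 1000 UMIs, Il1b was detected in 57.3% of Thbs1-positive and 40.4% of Thbs1-zero cells of the Treg-depleted tumor, and in 84.7% and 56.4% in the control tumor. The unthinned shares were 79.7% and 67.3% in the Treg-depleted tumor and 95.1% and 83.3% in the control tumor. The thinned Inhba shares were 23.5% and 18.8% in the Treg-depleted tumor, and 16.0% and 3.92% in the control tumor. How many companion markers were seen in a cell depended on depth. After thinning, exactly 3 of the 4 were seen in 18.6% and all 4 in 6.32% of Thbs1-positive cells of the Treg-depleted tumor, and in 16.8% and 2.84% in the control tumor. Thbs1-zero cells gave 12.1% and 3.94%, and 4.80% and 0.872%. Unthinned, 3 and 4 were seen in 30.96% and 23.7% of Thbs1-positive cells of the Treg-depleted tumor, and in 35.0% and 18.2% of those of the control tumor. That is over 50% of Thbs1-positive cells for 3 or 4 markers in both tumors. The unthinned shares of Thbs1-zero cells were 26.2% and 17.4% in the Treg-depleted tumor, and 19.5% and 5.23% in the control tumor. After thinning, none of the 4 was seen in 14.9% of Thbs1-positive cells of the Treg-depleted tumor and in 5.09% of those of the control tumor. In the 77 plasmacytoid dendritic cells of the control tumor, with a median of 4990 UMIs, thinned shares were 16.9% for Il1b, 15.6% for Cxcl2, 1.30% for Ptgs2 and 0% for Inhba, below the share in the Thbs1-positive cells for each gene. In the Treg-depleted tumor, type 1 conventional dendritic cells (19 cells, median 14510 UMIs) had Ptgs2 in 21.1% (6.05 to 45.6). This was close to the 22.7% of Thbs1-positive cells, so the Ptgs2 shares cannot be told apart from background. The other 3 markers were seen less often in these 19 cells than in Thbs1-positive cells, with Il1b in 26.3%, Cxcl2 in 15.8% and Inhba in 0%. In the 69 type 1 conventional dendritic cells of the control tumor Il1b was seen in 63.8%, more than in its Thbs1-zero cells and less than in its Thbs1-positive cells.

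**Figure D2:**
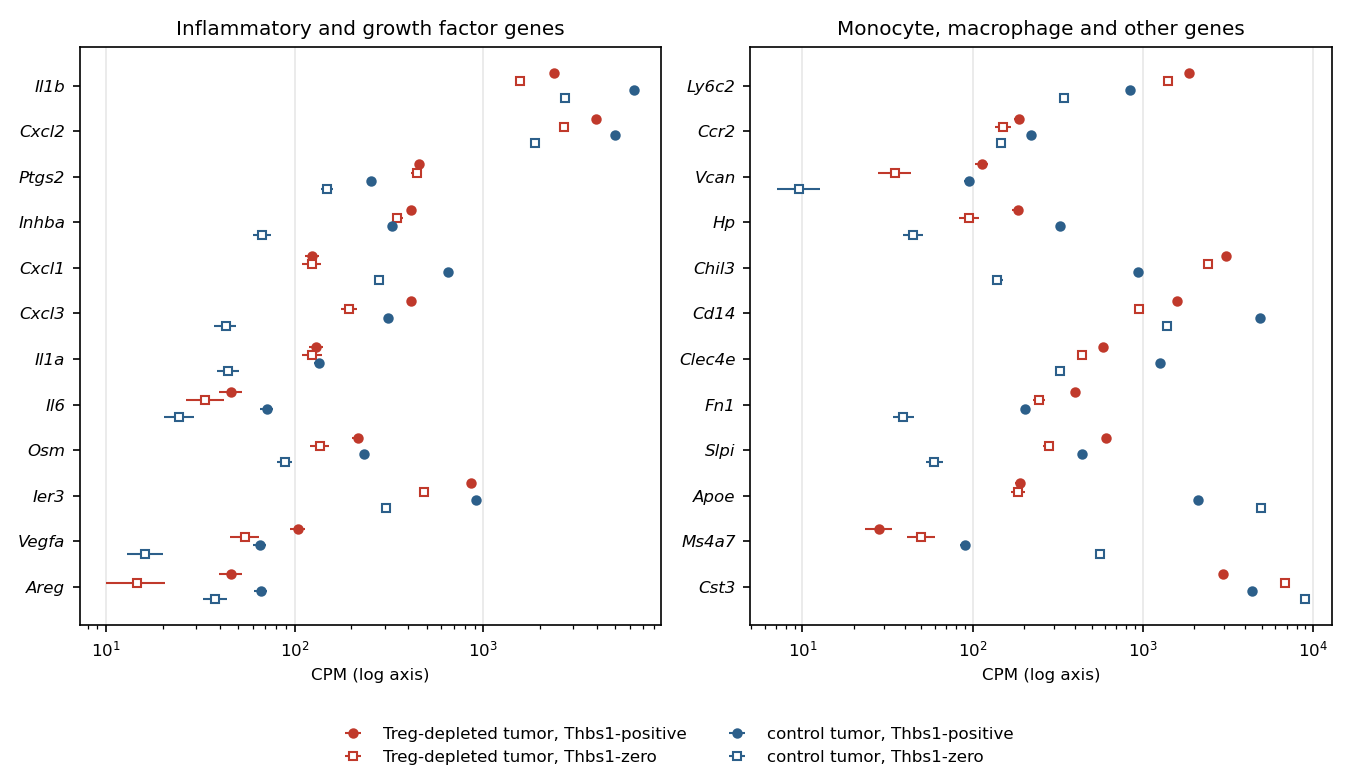
Levels (CPM, log axis) in Thbs1-positive cells (filled circles) and Thbs1-zero cells (open squares) of the Treg-depleted tumor (red) and the control tumor (blue); lines are exact 95% Poisson intervals. The gap between Thbs1-positive and Thbs1-zero cells is wider in the control tumor for most genes drawn, as for Inhba (1.17-fold against 4.88-fold) and Vcan (3.24-fold against 9.96-fold).

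The promoters of the chemokine genes Cxcl2, Cxcl3 and Cxcl1 and of Ptgs2 and Inhba are shown because these genes were measured together in the same cells and their upstream bases hold known motif letters. Promoter sequences are from RefSeq (GRCm38.p6), and 6 of the 7 genes looked up were matched. Each line begins 120 bases before the RefSeq start and runs up to the gene's first base in RefSeq or GENCODE M21 (GRCm38), whichever comes earlier, read 5′ to 3′ on the strand of the gene, with motif matches in capitals. The lines cover chr5:90903779-90903870 (plus strand, Cxcl2), chr5:90785981-90786100 (plus, Cxcl3), chr5:90891125-90891240 (plus, Cxcl1), chr1:150099911-150100030 (plus, Ptgs2) and chr13:16011731-16011850 (plus, Inhba).
Cxcl2: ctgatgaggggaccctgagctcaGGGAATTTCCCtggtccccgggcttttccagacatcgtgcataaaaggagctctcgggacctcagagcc
Cxcl3: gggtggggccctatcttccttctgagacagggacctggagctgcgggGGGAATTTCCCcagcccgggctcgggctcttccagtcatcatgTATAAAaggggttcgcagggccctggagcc
Cxcl1: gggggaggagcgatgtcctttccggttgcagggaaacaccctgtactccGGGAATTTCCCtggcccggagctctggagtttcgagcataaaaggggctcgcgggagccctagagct
Ptgs2: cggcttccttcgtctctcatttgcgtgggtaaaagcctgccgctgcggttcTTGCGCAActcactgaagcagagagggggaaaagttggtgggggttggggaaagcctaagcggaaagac
Inhba: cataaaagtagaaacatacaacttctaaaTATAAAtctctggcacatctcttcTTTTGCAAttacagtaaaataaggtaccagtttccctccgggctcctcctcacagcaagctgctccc

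In the 250 bases before each start, both strands were searched for the NF-kB consensus (by name), AP-1 (TGANTCA), the cyclic AMP response element (TGACGTCA), C/EBP (TTGCNNAA) and the TATA box (TATAAA). All 3 chemokine promoters held the same letters matching the NF-kB consensus in a pair of overlapping positions, beginning 97 and 96 bases before the start in Cxcl2, 73 and 72 in Cxcl3, and 71 and 70 in Cxcl1. The C/EBP letters began 69 bases before the start of Ptgs2 and 67 before that of Inhba, and TATA letters began 30 bases before the start of Cxcl3, 91 before Inhba and 31 before Il1b, in which no other motif matched. No match overlapped one of another motif. Among all 32851 promoters of the table, 9.55% held the NF-kB consensus, 9.56% C/EBP, 12.4% the TATA box, 6.75% AP-1 and 1.55% the cyclic AMP response element. A match describes letters only, since no binding was measured.

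Of 8559 genes measured in the Treg-depleted tumor (at least 20 UMIs over both classes), 147 (1.72%) stood 2-fold or more above, and 260 (3.04%) 2-fold or more below, the Thbs1-zero cells in the Thbs1-positive cells. Of 9766 genes in the control tumor 288 (2.95%) were higher and 833 (8.53%) lower. These percentages are the background against which the counts of lists below are read, and the medians over all measured genes were 0.01 and −0.09 on the log2 scale. Over the 8492 genes measured in both tumors, 28 were higher in both, 20.7% of those higher in the Treg-depleted and 12.2% of those higher in the control tumor. Lower in both were 107, or 42.6% and 24.0%. The genes called by size in either tumor were therefore mostly not called in the other, but calls were shared more often than the background. Of genes higher in the Treg-depleted tumor, 20.7% were also higher in the control tumor, where 230 of all 8492 genes were higher. For lower genes the share was 42.6%, with 445 of all 8492 genes lower in the control tumor.

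Classical monocyte genes were higher in the Thbs1-positive cells of the control tumor, to an extent that depended on the cells they were set against. Of 20 classical monocyte markers, 1 was at least 2-fold higher in the Treg-depleted tumor (median log2 ratio 0.39) and 15 in the control tumor (median 1.51), and none was 2-fold lower in either. Vcan, the proteoglycan versican, was the marker higher in both, with 113 CPM against 34.9 CPM in the Treg-depleted tumor (3.24-fold; 1.35 to 2.06) and 95.7 CPM against 9.61 CPM in the control tumor (9.96-fold; 2.90 to 3.77). Haptoglobin (Hp) was 1.92-fold and 7.35-fold higher, in the same order, Cd14, the lipopolysaccharide co-receptor, 1.67-fold and 3.56-fold, fibronectin (Fn1) 1.63-fold and 5.21-fold, and the chitinase-like protein gene Chil3 1.28-fold and 6.75-fold. Ly6c2, a surface marker of classical monocytes, was at 1878 CPM against 1407 CPM in the Treg-depleted tumor and 846 CPM against 345 CPM in the control tumor. Slpi, an inhibitor of leukocyte proteases that is on no monocyte list here, was 2.17-fold and 7.38-fold higher.

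Markers of other cells differed between the classes too. Of 24 neutrophil markers, 13 were measured in the Treg-depleted tumor, with 1 at least 2-fold higher in Thbs1-positive cells and 1 lower (median 0.30), and 12 in the control tumor, with 9 higher and none lower (median 1.68, and 1.29 to 2.12 over all settings run). Their summed level was 1383 CPM in Thbs1-positive and 1274 CPM in Thbs1-zero cells of the Treg-depleted tumor, and 1589.7 CPM against 696 CPM in the control tumor. Trem1, a receptor that amplifies inflammation in neutrophils and monocytes, was at 58.5 CPM against 10.4 CPM in the control tumor, and the calprotectin genes S100a8 and S100a9, abundant in neutrophils, at 41.9 against 21.2 CPM and 26.0 against 17.2 CPM. The Treg-depleted tumor had S100a8 at 187 CPM against 222 CPM (log2 0.52 under the same C1q and neutrophil limits, where it turned) and S100a9 at 46.7 CPM against 169 CPM. Ngp and Camp, genes of neutrophil granules, had 0 UMIs in Thbs1-positive cells of both tumors. The part of these neutrophil markers in the monocyte and chemokine values was not tested. Dendritic cell lists differed among themselves. Type 1 conventional dendritic cell markers were at least 2-fold lower in Thbs1-positive cells for 6 of 9 measured in the Treg-depleted and 8 of 11 in the control tumor (medians -1.03 and -2.05). Type 2 markers were lower for 4 of 9 and 7 of 12 (medians -0.51 and -1.06). Markers of Ccr7-carrying dendritic cells were lower for 1 of 10 and 1 of 12, and higher for 1 and 2 (medians -0.26 and -0.27). Cell cycle genes were lower for 9 of 16 and 18 of 20 (medians -1.09 and -1.91). After thinning to 3000 UMIs the medians in the Treg-depleted tumor were −0.19 for type 1 markers and −0.21 for cell cycle genes, so their 2-fold size was lost there. Tumor macrophage markers, which the Thbs1-zero cells could carry as they had no C1q limit, were lower for 3 of 24 in the Treg-depleted and 13 of 24 in the control tumor (medians -0.02 and -1.09). Apoe, a lipid carrier of macrophages, was at 191 CPM against 186 CPM in the Treg-depleted tumor, where the interval of the ratio included 1, and at 2107 CPM against 4981 CPM in the control tumor.

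When the Thbs1-zero cells were held to the same C1q and neutrophil limits (319 and 329 cells), the control tumor's macrophage median turned to 1.00 and Apoe to a log2 ratio of 1.01. Among cells with at least 2 Ly6c2 UMIs that met the other limits on both sides, a comparison added after the data had been seen, the contrast was closest to monocyte against monocyte. The median of the classical monocyte markers was then 0.14 in the Treg-depleted and 0.50 in the control tumor, so its 2-fold size in the control tumor was lost. This left 604 Thbs1-positive and 216 Thbs1-zero cells in the Treg-depleted tumor and 862 and 118 in the control tumor, with median depths of 5563 and 4988.5 UMIs and of 5485.5 and 4746.5 UMIs. The log2 ratio of Vcan was then 1.22 in the Treg-depleted and 1.36 in the control tumor, that of Hp 0.49 and 1.21, that of Cxcl3 1.78 and 2.16, that of Ier3, an early response gene, 0.82 and 1.42, and that of Vegfa, the angiogenic factor, 1.12 and 2.20. Inhba stood at 0.06 in the Treg-depleted tumor, with an interval that included 0, and at 1.59 in the control tumor. Ptgs2 was at -0.27 and 0.74, so it was lower in Thbs1-positive cells of the Treg-depleted tumor and higher in those of the control tumor.

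Neutrophil-attracting chemokines were led by Cxcl3 in both tumors. Cxcl3 was at 414 CPM in Thbs1-positive and 194 CPM in Thbs1-zero cells of the Treg-depleted tumor (2.13-fold; 0.94 to 1.25) and at 312 CPM against 43.0 CPM in the control tumor (7.26-fold; 2.66 to 3.07). Cxcl1 gave 123 CPM against 123 CPM in the Treg-depleted tumor, with an interval that included no difference, and 647 CPM against 280.2 CPM in the control tumor (2.31-fold). Of the 5 measured members of this chemokine list, 1 was at least 2-fold higher and 1 lower in the Treg-depleted tumor, and 4 higher and 1 lower in the control tumor. The member called lower in the control tumor was Pf4, platelet factor 4, whose direction turned under the same limits (log2 ratio 1.21), and the one in the Treg-depleted tumor was Ppbp, a platelet chemokine, at 5.70 CPM against 30.5 CPM. Of 12 platelet and megakaryocyte genes listed, 9 in the Treg-depleted and 8 in the control tumor had 0 UMIs in Thbs1-positive cells. Gp9, Gp1bb, Gp1ba, Treml1 and Tubb1 were among them in both tumors. These 5 also had 0 UMIs in the Thbs1-zero cells under the same limits, so they do not tell the classes apart. The monocyte-attracting chemokine gene Ccl2 was at 3817 CPM against 1974 CPM in the Treg-depleted tumor (1.93-fold) and 1417 CPM against 1223 CPM in the control tumor (1.16-fold). Against Thbs1-zero cells under the same limits its log2 ratio was 1.197 in the Treg-depleted and 2.04 in the control tumor, so the order of the tumors turned, and with the Ly6c2 limit it was 1.04 and 1.18. Ccl7, which also attracts monocytes, was 2.04-fold higher in the Treg-depleted tumor (3272 against 1602 CPM) and 1.37-fold lower in the control tumor (950.4 against 1301 CPM), where it turned to a log2 ratio of 1.83 against Thbs1-zero cells under the same limits.

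Calls among the interleukin-1 genes were seen in the control tumor, and they depended on the contrast. None of the 12 measured members of the interleukin-1 and inflammasome list was 2-fold higher in the Treg-depleted tumor (median 0.14), and 3 were in the control tumor (median 0.55): Il1b, Il1a and the receptor antagonist gene Il1rn. Il1a was at 129.9 CPM against 124 CPM in the Treg-depleted tumor, with an interval that included 1, and at 134 CPM against 44.6 CPM in the control tumor. With the Ly6c2 limit none of the 3 stayed 2-fold higher in the control tumor, where log2 ratios were 0.60 for Il1b, 0.48 for Il1a and 0.93 for Il1rn. Under the same limits without it, Il1b was at 0.40, Il1a at 1.97 and Il1rn at 1.36. Of 26 NF-kB factors and feedback genes, none was 2-fold higher in the Treg-depleted tumor and 1, Ier3, in the control tumor, at medians of 0.04 and 0.39. Ier3 was nonetheless 1.77-fold higher in the Treg-depleted tumor (859 against 485 CPM) and 3.01-fold in the control tumor (919 against 305 CPM). Other inflammatory cytokines were 2-fold higher for 0 of 15 and 6 of 17 measured genes. Among them were Il6 (1.36-fold and 2.92-fold) and oncostatin M, Osm (1.59-fold and 2.65-fold). With the Ly6c2 limit their log2 ratios in the control tumor were 0.55, with an interval that included 0, and 0.89.

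Growth factor genes went both ways. Of the growth and angiogenic factor list, 1 of 9 measured genes was at least 2-fold higher and 1 lower in the Treg-depleted tumor (median 0.21), and 2 of 14 were higher and 7 lower in the control tumor (median -0.85). Among those lower in the control tumor were Igf1, insulin-like growth factor 1, 9.21-fold lower, and Gdf15, a stress-induced member of the TGF-beta family, at 26.5 CPM against 146 CPM. Under the same limits Igf1 turned to a log2 ratio of 1.29, and Gdf15 was at -0.06 with an interval that included 0. Vegfa was at 104 CPM against 54.4 CPM in the Treg-depleted tumor (1.92-fold; 0.65 to 1.24) and at 65.3 CPM against 16.2 CPM in the control tumor (4.03-fold; 1.67 to 2.36). Areg, the epidermal growth factor receptor ligand amphiregulin, was 3.14-fold higher in the Treg-depleted tumor (45.8 against 14.6 CPM) and 1.74-fold higher in the control tumor (66.2 against 38.0 CPM). The control tumor's log2 ratio of Areg was 0.11 under the same limits and -0.26 with the Ly6c2 limit, both with intervals that included 0. Of the coagulation list, 1 of 15 measured genes was higher in the Treg-depleted tumor (Serpinb2, an inhibitor of urokinase, at 39.9 against 15.5 CPM; log2 0.21 with the Ly6c2 limit, where the interval included 0) and 7 of 16 in the control tumor. F10, coagulation factor X, was 1.37-fold and 3.10-fold higher, in that order, and the urokinase receptor gene Plaur 1.07-fold and 2.10-fold. With the Ly6c2 limit the control tumor's log2 ratios were 0.71 for F10 and 0.72 for Plaur. Against all Thbs1-zero cells, the thrombospondin-1 receptor genes Cd36 and Cd47 were not higher along with Thbs1. No measured member of the thrombospondin family and receptor list was 2-fold higher in either tumor. Cd36 was at 275 against 318 CPM in the Treg-depleted and 131 against 136 CPM in the control tumor, and Cd47 at 302 against 321 CPM and 505 against 511 CPM. The intervals of both Cd47 ratios and of the control tumor's Cd36 ratio included 1. Under the same limits the control tumor's Cd36 had a log2 ratio of 0.44 (0.23 to 0.67). Cd47 stood at -0.24 in the Treg-depleted and -0.36 in the control tumor there. With the Ly6c2 limit the control tumor's Cd36 was at 0.18, with an interval that included 0, and Cd47 at -0.27 and -0.16. In the Treg-depleted tumor Cd36 was at 0.15 and 0.07 in these contrasts, both with intervals that included 0. In the activin and TGF-beta list, Inhba in the control tumor was the single gene at least 2-fold higher, and Tgfb1 gave 285 against 287 CPM in the Treg-depleted tumor, an interval including 1, and 443 against 273 CPM in the control tumor.

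The MHC class II genes, which present antigen to helper T cells, had medians below 0 in both tumors, and most lay within 2-fold. None of the 10 genes of the MHC class II list was 2-fold higher, and 4 in the Treg-depleted and 3 in the control tumor were 2-fold lower (medians -0.64 and -0.57). H2-Ab1, a class II chain gene, was at 3661 CPM against 5737 CPM in the Treg-depleted and 8143 CPM against 11527 CPM in the control tumor. Cst3, the protease inhibitor cystatin C that is abundant in dendritic cells, was 2.29-fold lower in the Treg-depleted tumor (2969 against 6804 CPM) and 2.05-fold lower in the control tumor (4362 against 8927 CPM). Among the genes with the smallest ratios in the Treg-depleted tumor were also Plet1 (3.35-fold and 4.47-fold) and the creatine kinase gene Ckb (4.31-fold and 3.13-fold). After thinning to 3000 UMIs the log2 ratios in the Treg-depleted tumor were −0.39 for Cst3, −0.19 for Plet1 and −0.47 for Ckb, so none stayed 2-fold lower there.

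**Figure D3:**
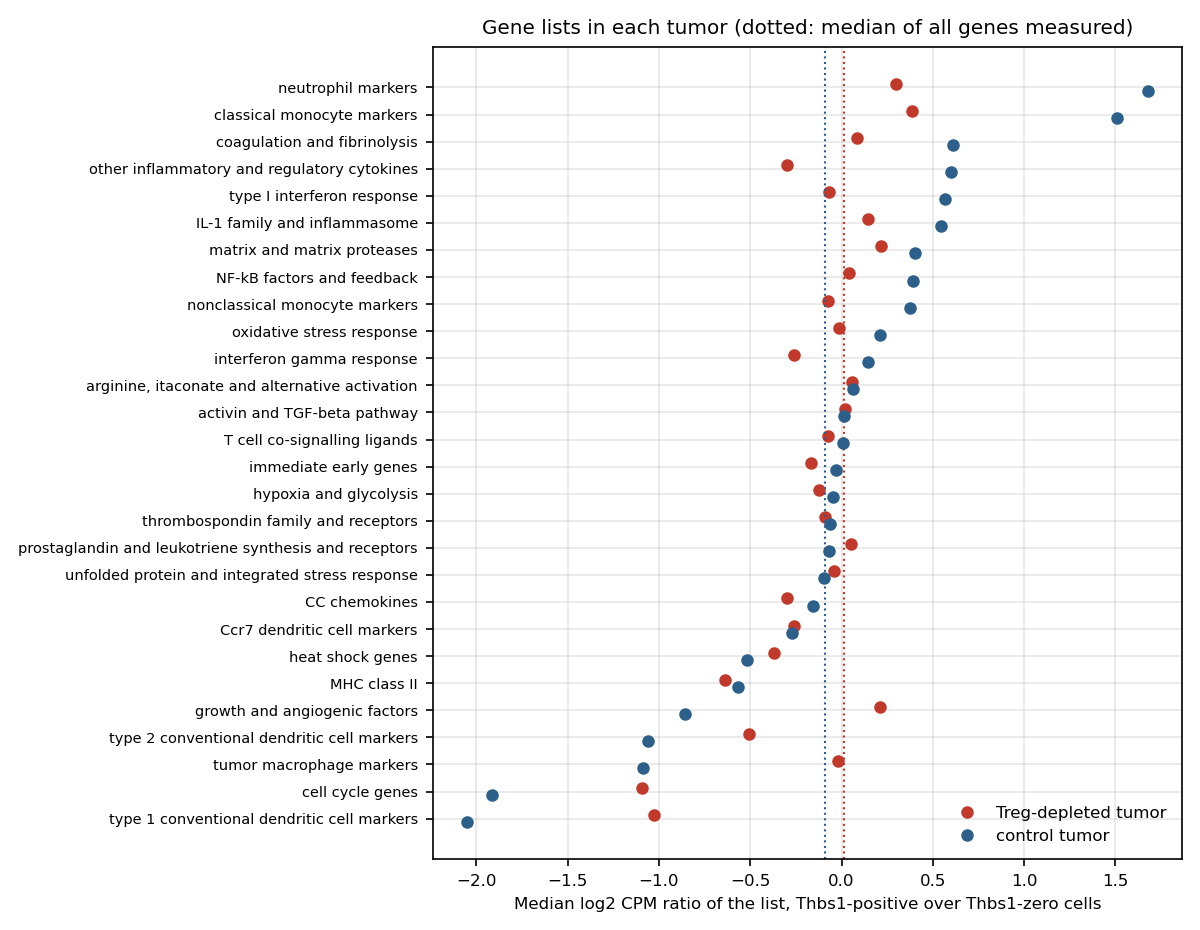
Median log2 ratio (Thbs1-positive over Thbs1-zero) of each gene list with at least 9 measured genes in both tumors, for the Treg-depleted tumor (red) and the control tumor (blue); dotted lines mark the medians of all measured genes, 0.01 and −0.09. Classical monocyte markers stand at 0.39 and 1.51, and the dendritic cell and cell cycle lists lie on the negative side in both.

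The markers were also followed over the Thbs1 count itself, among the 1289 cells of the Treg-depleted and 1889 cells of the control tumor that met the other limits. In the control tumor Cxcl2 was 1211 CPM in cells with no Thbs1 UMI, 3736 CPM at 3 UMIs and 8021 CPM above 20 UMIs. Over the same classes Inhba was 58.5, 232 and 496 CPM, Cd14 1309, 3741 and 5595 CPM, and Cst3 16391, 5654 and 4434 CPM. The first 3 genes were thus highest, and Cst3 far lower, in the cells with most Thbs1. Il1b in the control tumor was already 4774 CPM at no Thbs1 UMI, 4024 CPM at 3 and 6825 CPM above 20. In the Treg-depleted tumor neither Inhba nor Cxcl2 had a steady order over the classes. Inhba was at 370.2 CPM at no Thbs1 UMI, 350.1 CPM at 3 and 409 CPM above 20. Cxcl2 was 2755 CPM at no Thbs1 UMI, 4718 CPM at 2, 3343 CPM at 3 and 5315 CPM above 20. At 0, 3 and above 20 UMIs Ccl2 there was 1665, 4179 and 5015 CPM, and Cxcl3 189, 217 and 836 CPM. Neither rose steadily in between, with Ccl2 at 2736 CPM at 6 to 10 UMIs and Cxcl3 at 469 CPM at 2 UMIs. Median depth per class ran between 4561 and 5996 UMIs in the Treg-depleted and between 4942 and 6095.5 UMIs in the control tumor, and its part in these levels was not tested.

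**Figure D4:**
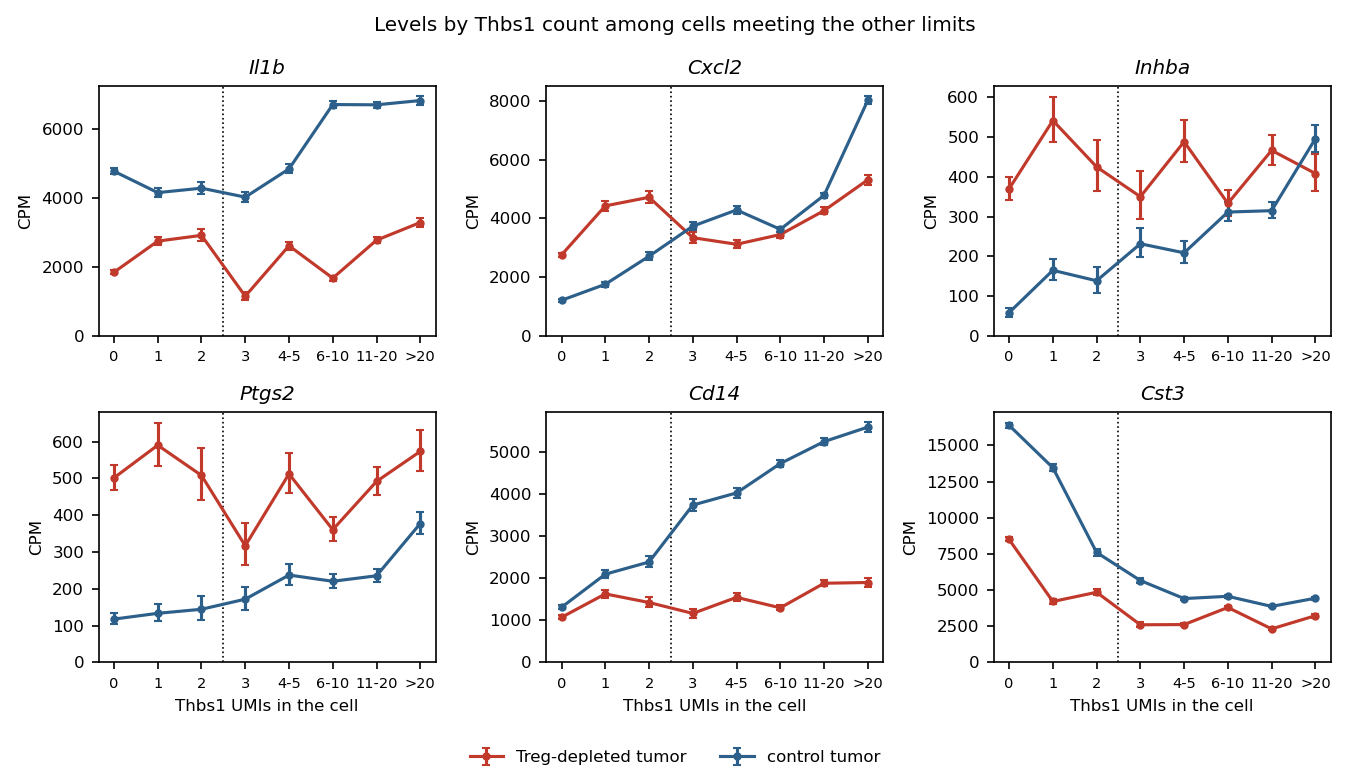
Level (CPM) of 6 genes by the number of Thbs1 UMIs in the cell, among cells that met the other limits, in the Treg-depleted tumor (red) and the control tumor (blue); bars are exact 95% Poisson intervals and the dotted line marks the limit of 3 UMIs. In the control tumor Inhba goes with the Thbs1 count, 496 CPM above 20 UMIs against 58.5 CPM at 0, while in the Treg-depleted tumor it is 409 CPM against 370.2 CPM.

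Cells just inside and just outside each limit were described without a test. In the Treg-depleted tumor, 49 Thbs1-positive cells held 5 Lyz2 UMIs and 76 cells that met every other limit held 4. Their Cxcl2 levels were 4728 and 7829 CPM, and their Ptgs2 levels 679 and 1103 CPM. The 786 cells left out by Lyz2 alone had a median of 3006.5 UMIs. They held more of the markers than the Thbs1-positive cells, with Cxcl2 at 7946 CPM, Il1b at 3564 CPM, Ptgs2 at 1024 CPM and Inhba at 768 CPM. Ly6c2 was 584 CPM and Hp 17.1 CPM in those cells, below 1878 and 184 CPM in Thbs1-positive cells. The Lyz2 limit alone left out 57 cells of the control tumor. At the Thbs1 limit, cells with 3 and 2 UMIs had Il1b at 1150.1 and 2915 CPM in the Treg-depleted and 4024 and 4283 CPM in the control tumor. At the C1q limit, cells with 0.08 to 0.1% and with 0.1 to 0.12% of UMIs on C1q genes had Apoe at 145 and 87.6 CPM in the Treg-depleted and 2946 and 2343 CPM in the control tumor. At the neutrophil limit, 20 and 2 cells of the Treg-depleted tumor and 19 and 6 of the control tumor held 2 and 3 UMIs, too few to describe.

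Thbs1-positive cells were not uniform. They were ranked by their Ly6c2 level, and the 190 lowest and 190 highest cells of the Treg-depleted tumor were compared, and 334 and 334 of the control tumor. In the Treg-depleted tumor Retnla, a gene of alternative macrophage activation, was 2533 CPM in the cells with least and 59.4 CPM in those with most Ly6c2. Arg1, the arginine-degrading enzyme, was 4076 and 1559 CPM, and Hp 17.9 and 429.8 CPM, in the same order. The Treg-depleted tumor's Thbs1-positive cells thus ran between cells with more Arg1 and Retnla and little Hp and cells with less of both and more Hp. Arg1 remained at 1559 CPM in the cells with most Ly6c2, above the 180.4 CPM of all Thbs1-positive cells of the control tumor. Free RNA of the Treg-depleted tumor held Arg1 at 3579 CPM, more than those cells, and its part in their level was not tested. Il1b was 2627 and 2014 CPM and Ptgs2 652 and 318 CPM over the same cells. The ends of the ranking in the control tumor were closer for Il1b (6697 and 5721 CPM) and further apart for Cxcl1 (1296 and 376 CPM) and Cxcl3 (530.3 and 131 CPM).

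Between the tumors, Thbs1-positive cells of the Treg-depleted tumor held 686 of 9554 measured genes (7.18%) at a level 2-fold or more above those of the control tumor, and 577 (6.04%) 2-fold or more below, at a median over all genes of −0.01. The cells of the Treg-depleted tumor carried far more of several alternative activation genes. Of that list 9 of 18 measured genes were higher and 1 lower (median 1.00). Arg1 was at 3126 CPM in the Treg-depleted and 180.4 CPM in the control tumor (17.3-fold; 4.04 to 4.19). Ccl24, the eosinophil-attracting eotaxin-2, was at 4018 and 64.3 CPM (62.5-fold; 5.84 to 6.09), Retnla at 974 and 36.1 CPM (27.0-fold), the arginine transporter gene Slc7a2 at 200.1 and 11.7 CPM, and the mannose receptor gene Mrc1 at 258 and 51.0 CPM. Nos2, the inducible nitric oxide synthase that shares the substrate of Arg1, was also higher, at 99.2 and 8.37 CPM. The Thbs1-zero cells of the Treg-depleted tumor held nearly as much Arg1 and Ccl24, at 2964 and 3921 CPM. Retnla and Mrc1 were higher in its Thbs1-positive than in its Thbs1-zero cells, by log2 ratios of 0.74 and 0.85, and of 1.80 and 1.58 under the same limits, though Retnla turned to −0.22 with means of per-cell CPM. Free RNA moved the same way. Droplets of 10 to 100 UMIs held Arg1 at 3579 CPM in the Treg-depleted and 182 CPM in the control tumor, Ccl24 at 5042 and 39.4 CPM, and Retnla at 1493 and 57.6 CPM. In the Treg-depleted tumor thinned shares of Arg1 were 60.1% in Thbs1-positive cells and 31.6% in the 19 type 1 conventional dendritic cells, and shares of Ccl24 59.0% and 21.1%.

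Lower in the Treg-depleted tumor were Apoe, at 191 CPM against 2107 CPM (log2 ratio -3.47), and Il10, the anti-inflammatory cytokine, at 2.51 CPM against 54.7 CPM (21.8-fold; log2 interval -5.46 to -3.60). Cxcl1 was at 123 CPM against 647 CPM (5.24-fold), Cd14 at 1594 CPM against 4910.1 CPM (3.08-fold) and Il1b at 2367 CPM against 6279 CPM (2.65-fold). Of the other markers, Ptgs2 was 1.79-fold and Inhba 1.25-fold higher in the Treg-depleted tumor, while Cxcl2 was 1.26-fold lower. The inflammatory genes therefore did not shift together between the tumors. Of the MHC class II list 6 of 10 genes were lower and none higher (median -1.03), and of the NF-kB list 6 of 26 lower and none higher (median -0.35). Of the CC chemokine list 6 of 12 were higher, including Ccl2 (2.69-fold), Ccl7 (3.44-fold), Ccl8 (11.8-fold) and Ccl17 (12.4-fold), and none lower (median 0.90). Of 14 neutrophil markers measured between the tumors, 3 were at least 2-fold higher in the Treg-depleted tumor and 4 lower (median 0.23). S100a8 was among the higher (log2 ratio 2.16). Ly6g, whose protein the sort left out, was barely detected, at 0.456 CPM in the Treg-depleted and 0.229 CPM in the control tumor. The part of the neutrophil markers in the difference between tumors was not tested.

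**Figure D5:**
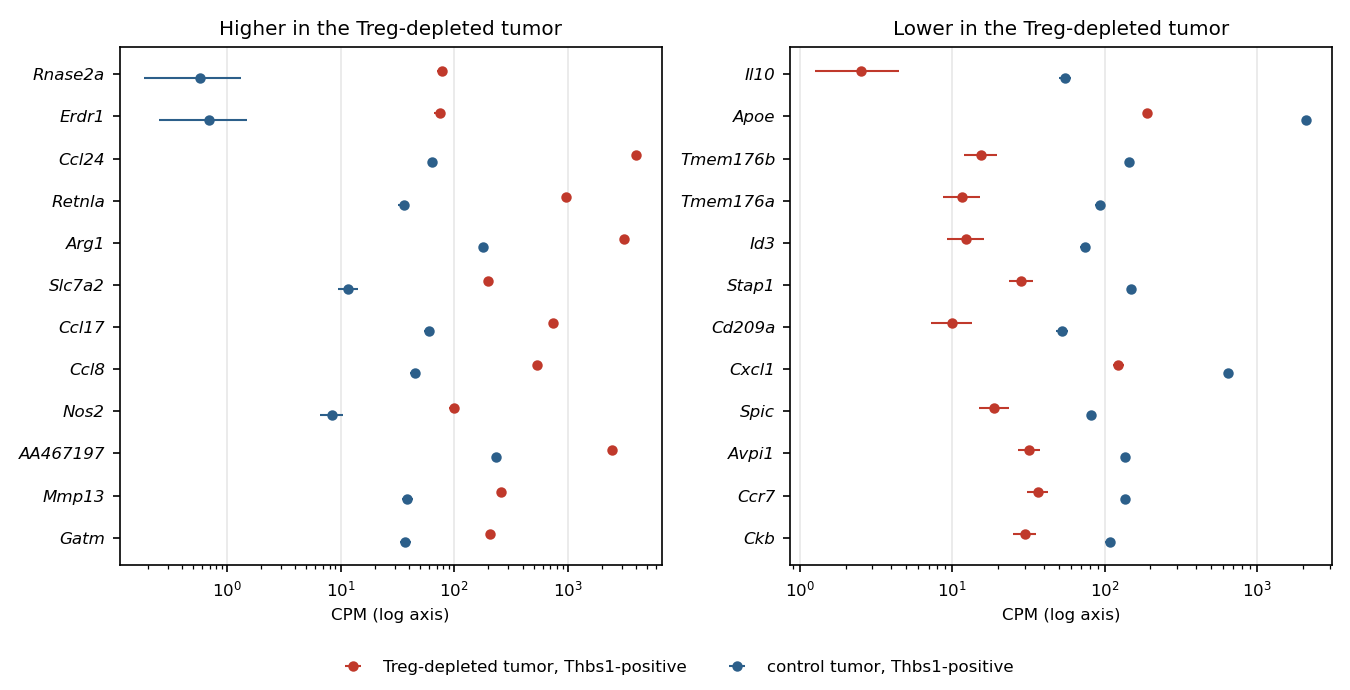
Levels (CPM, log axis) in Thbs1-positive cells of the Treg-depleted tumor (red) and of the control tumor (blue) for the 12 genes with the largest (left) and the 12 with the smallest ratio between tumors; lines are exact 95% Poisson intervals. Arg1 stands at 3126 against 180.4 CPM and Apoe at 191 against 2107 CPM.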

How the data were processed

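Sorted myeloid cells of 3 mouse libraries (Treg-depleted tumor, control tumor, control blood) were measured with the Chromium 3′ v2 kit. Per the submitters' processing notes, Cell Ranger 1.2 and the mm10 build were used. The matrices the authors deposited hold whole-number UMI counts for 27998 genes and 737280 barcodes, empty droplets included, so cells were called anew by the limits given above. Library totals were 23291061, 42493416 and 22944387 UMIs, and kept cells had median depths of 3820, 6452 and 3550 UMIs. Where several identifiers shared a symbol the one with most UMIs was used.

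Counts were summed over each class of cells and library, and CPM, CPM ratios and shares were computed from the sums in Python 3.11.15 with numpy 2.4.6, scipy 1.17.1, pandas 2.3.3 and scikit-learn 1.9.0. Intervals are exact Poisson intervals for levels, conditional binomial intervals for ratios and Clopper-Pearson intervals for shares, all at 95%. With 1 library per group no test was made, and edgeR or DESeq2 was not used. A gene was measured with 20 or more UMIs over both classes, and the 7 genes of the cell rule were left out. A class at 0 UMIs was set to 3 counts. Genes were taken for naming by rank of ratio (12 at each end per comparison, at least 50 CPM and 100 UMIs on the higher side), as markers, or from the 40 gene lists (655 of 662 entries found), and the text gives some of these. For detection shares each cell was thinned to 1000 UMIs, and none was too shallow. Doublets were scored against simulated ones and kept in the values given. The calculation was tested on simulated counts. The members, markers and lists were chosen with earlier results of these data known. 14 alternatives were run, 3 of them chosen after seeing the data.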

Additional observations from a re-analysis of the deposited data

Results flagged for a closer look

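Several genes lay on opposite sides of no difference in the tumors when Thbs1-positive cells were set against Thbs1-zero cells, and with 1 library per tumor the difference between tumors was not tested. Ccl7 had a log2 ratio of 1.03 in the Treg-depleted tumor and -0.45 in the control tumor. Mrc1 stood at 0.85 and -1.12, and Retnla at 0.74 and -1.33, in the same order. S100a9 was at -1.85 and 0.60. Ppbp was at -2.42 and 1.67, on low levels of 5.70 CPM in Thbs1-positive and 30.5 CPM in Thbs1-zero cells of the Treg-depleted tumor and 4.47 and 1.40 CPM in the control tumor. Against Thbs1-zero cells held to the same C1q and neutrophil limits, the control tumor gave 1.83 for Ccl7, 0.68 for Mrc1 and 3.93 for Retnla, so the opposite sign of these 3 genes was not seen in that contrast. The Retnla ratio rested on 5 UMIs in those Thbs1-zero cells. With the Ly6c2 limit the control tumor gave 0.98 for Ccl7, -0.24 for Mrc1 and -0.21 for Retnla. The last 2 intervals included 0, so Mrc1 and Retnla showed no direction. Ppbp had a log2 ratio of -2.02 in the Treg-depleted and 3.23 in the control tumor under the same limits, the latter on 1 UMI in the Thbs1-zero cells (0.67 to 8.57).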

How the results depend on the processing

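The share of Thbs1-positive cells in the Treg-depleted tumor was 19.1% with a UMI minimum set per library, 18.9% and 14.0% with at least 2 and at least 5 Thbs1 UMIs, 15.1% after thinning to 3000 UMIs and 34.8% without the Lyz2 limit. In the control tumor the first 4 settings gave 31.9%, 32.0%, 25.5% and 24.9%. As a share of all kept cells it was lower in the Treg-depleted tumor in each setting run except that without the Lyz2 limit. Among kept cells with at least 5 Lyz2 UMIs it was higher there, at 41.2% (38.9 to 43.5) against 33.6% (32.1 to 35.1). Among cells that met all limits other than that on Thbs1 it was lower, at 58.9% against 70.7%. Counts of genes at least 2-fold higher in the Treg-depleted tumor were 288 against Thbs1-zero cells under the same other limits, 292 among Ly6c2-carrying cells, 221 with means of per-cell CPM and 23 with at least 100 UMIs over both classes. Counts lower there were 147 after thinning and 43 with 100 UMIs. In the control tumor 551, 479 and 150 genes were higher under the same limits, among Ly6c2-carrying cells and with 100 UMIs, and 484 and 249 lower in the last 2 settings. With 100 UMIs, 325 genes were higher and 275 lower between tumors. The counts thus depend on the count minimum and on the contrast cells.

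Values changed sign in the control tumor against Thbs1-zero cells under the same limits, where the median of macrophage markers was 1.00 and that of melanoma markers 0.56, and log2 ratios were 1.01 for Apoe, 1.29 for Igf1, 0.023 for Ccl8, 0.68 for Mrc1, 1.21 for Pf4 and 3.93 for Retnla. The Igf1 and Retnla ratios rested on 6 and 5 UMIs in the Thbs1-zero cells. Among Ly6c2-carrying cells the macrophage median was 0.41, Apoe 0.39, Ccl8 0.037 and Pf4 0.27. Of these, the intervals of both Ccl8 ratios and of this Pf4 ratio included 0, so they show no direction. The plasmacytoid dendritic cell median between tumors was 0.015 after thinning, and S100a9 in the Treg-depleted tumor was at 0.21 there. The cause of these changes was not tested, except that by construction the same-limit contrast holds no C1q-high cell. Leaving out barcodes kept in more than 1 library, doublet-scored cells or 5% of free RNA turned no direction of a gene or list median past 2-fold. No paired analysis was possible because each group had 1 library. Depth limits genes under a few CPM, which most cells leave uncounted.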
